A study of Mus musculus with 44 samples.

Results

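The transcription factor genes described here were Foxl2, Gata4, Gata6, Foxo1, Foxo3, Wt1, Sox4 and Lhx9, which are known from the granulosa cells of the ovarian follicle and from the gonadal lineage those cells come from. They were picked by gene symbol, and all 8 were found in each of the 2 deposited tables, among 22674 genes in the maturation table and 18274 genes in the ovulation table. Expression had been measured by RNA sequencing in 44 libraries of ovarian follicles from wild-type CD-1 mice, an outbred strain. In the maturation window, 11 control libraries had been given the solvent DMSO and 10 libraries perfluorononanoic acid (PFNA, a long-chain perfluoroalkyl acid). In the ovulation window, 12 control libraries had been given hCG (human chorionic gonadotropin, which stands in for the luteinizing hormone surge) and 11 libraries hCG together with PFNA, so every ovulation library carried the hCG stimulus. The question was how PFNA changed gene expression in each of these windows. Dose, exposure time, animal age and the number of follicles or animals in a library are not given in the sources used here. P-values therefore measure the spread between these libraries, which may be partly technical.

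Granulosa cells surround the oocyte, respond to follicle-stimulating hormone and make oestradiol, and their identity is held by a small set of transcription factors. FOXL2 keeps them in the ovarian state and restrains the testis programme. GATA4 and GATA6 bind the promoters of steroidogenic and inhibin genes, often together with the nuclear receptors SF-1 (Nr5a1) and LRH-1 (Nr5a2). FOXO1 and FOXO3 are forkhead factors that the PI3K and AKT pathway excludes from the nucleus, FOXO1 being the form best known in granulosa cells and FOXO3 the one that holds primordial oocytes at rest. WT1 and LHX9 act in the early gonad and in its surface epithelium, and SOX4 is a SoxC factor found in many progenitor cells.

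The values were TPM (transcripts per 1e+06, adjusted for gene length) in the maturation table, for which the number of reads is unknown, and estimated counts in the ovulation table, printed here as CPM (counts per 1e+06 after TMM scaling, not adjusted for length). Summed counts per ovulation library, in units of 1e+06, ran from 11.96 to 16.05 in controls and from 10.6 to 19.51 with PFNA. All 16 granulosa markers on the list passed the filter on low values in both windows, as most genes did, so that alone does not settle the granulosa label. Their summed level was 49484 to 78215 TPM in maturation controls and 19174 to 26097 CPM in ovulation controls. Theca and stroma markers summed to 534 to 1556 TPM and 420 to 2556 CPM in the same controls. Whole follicles also hold oocyte and theca cells, and the summed share of 24 oocyte markers was 0.0289% to 0.0464% of the total in maturation controls. With PFNA that share had a median of 0.00211% in the maturation window, and replicates 1, 2 and 10 stood apart at 0.0296%, 0.0226% and 0.0672%. In the other PFNA libraries it was at most 0.00350%, below every control. The share thus largely went with the treatment, and as a covariate in that window it could hardly be separated from PFNA. In the ovulation window its median was 0.0188% in controls (0.0154% to 0.0650%) and 0.0527% with PFNA (0.00656% to 0.0996%). The share was thus partly tied to PFNA there too, and fits adjusted for it do not cleanly separate the 2. In bulk samples such as these, fewer cells of a type and less RNA per cell cannot be told apart.

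In the maturation window, Foxo1 and Sox4 rose with PFNA and none of the other tested genes of the set passed the test. In the ovulation window, Gata4, Foxo1, Foxo3 and Sox4 rose and Gata6 fell. The fold changes were largest for Sox4 in the maturation window, at 1.15 on the log2 scale, and for Foxo1 in the ovulation window, at 1.98. In the maturation window 2 of the 7 genes tested were called at an adjusted p under 0.05 (limma on log2(TPM + 1)), where 29.4% of all 13712 genes tested were called. In the ovulation window 5 of 7 were called (edgeR's quasi-likelihood test), where 73.2% of all 13441 genes tested were called. Both counts are near the background, so the set as a whole did not stand apart, and a call in the ovulation window was common. Lhx9 was below the filter on low values in both windows. The median log2 fold change over the 7 genes was 0.15 in the maturation window and 0.29 in the ovulation window, beside 0.02 and 0.04 over all genes tested. Regardless of sign, the median size of the change was 0.22 beside 0.20 over all genes in the maturation window. In the ovulation window it was 0.37 beside 0.57, and Gata6 (-0.37), Foxo3 (0.41) and Sox4 (0.29) each changed by less than 0.57.

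**Figure D1:**
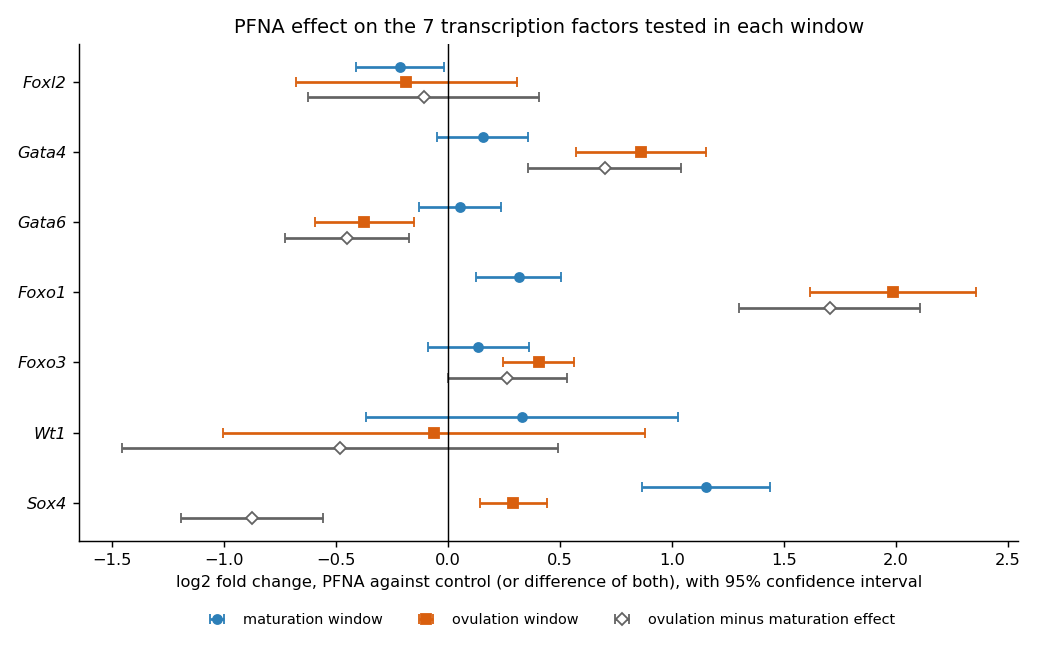
Log2 fold change (x axis) of PFNA against control with its 95% confidence interval for the 7 transcription factors tested (y axis), in the maturation window (circles, limma) and the ovulation window (squares, edgeR), with the difference between both effects (open diamonds, limma in each table). Foxo1 lies farthest to the right in the ovulation window at 1.98, Sox4 in the maturation window at 1.15, and the intervals of the differences for Gata4, Foxo1, Gata6 and Sox4 do not cross 0.

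Foxl2, the forkhead factor that maintains granulosa identity, had the highest level of the set in maturation controls. The gene is a single exon of 3256 bases on chromosome 9 (98955288 to 98958543, plus strand, GRCm38). Its TPM in the 11 maturation controls ran from 905 to 1475 with a median of 1147, and in the 10 PFNA libraries from 748 to 1312 with a median of 1004. The groups overlapped, with 3 of 10 PFNA libraries below every control. The means were 1172 ± 158 TPM (SD, n = 11) and 1015 ± 175 TPM (SD, n = 10), a log2 difference of -0.22 with a standard error (SE) of 0.094 that did not pass the test (limma, adjusted p = 0.090). Without PFNA replicate 1 it passed at -0.26 (limma, adjusted p = 0.033), without control replicate 11 at -0.25 (adjusted p = 0.045), and without PFNA replicates 1 and 2 together at -0.29 (adjusted p = 0.017).

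In ovulation libraries Foxl2 ran from 22.9 to 56.5 CPM in controls, median 43.4, and from 12.9 to 82.2 CPM with PFNA, median 30.3. The PFNA libraries spread past the controls on both sides, with 2 above every control and 2 below. The means of 41.2 ± 10.2 CPM (SD, n = 12) and 36.1 ± 20.1 CPM (SD, n = 11) gave a log2 fold change of -0.19 (95% interval -0.68 to 0.30), which did not pass the test (edgeR, adjusted p = 0.49). With the oocyte marker share as a covariate it was -0.74 (edgeR, adjusted p = 0.0083). That share had a higher median with PFNA in this window, so its part and that of PFNA could not be cleanly separated. The estimated counts behind the CPM of Foxl2 were 181 to 1385 per library.

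The non-coding gene Foxl2os, which is transcribed from the opposite strand next to Foxl2, moved in opposite directions in the 2 windows. In maturation libraries it fell from 150 ± 24.3 TPM in controls (SD, n = 11) to 103 ± 13.3 TPM with PFNA (SD, n = 10), a log2 change of -0.53 (limma, adjusted p = 0.00025). Under hCG it rose from 13.97 ± 4.95 CPM in controls (SD, n = 12) to 28.1 ± 7.48 CPM with PFNA (SD, n = 11), a log2 change of 1.01 (edgeR, adjusted p = 3.4e-05). Within a library, the median of Foxl2 per Foxl2os went from 7.69 to 9.88 in the maturation window and from 2.90 to 1.22 in the ovulation window. The gene models overlap by 12 bases in the maturation table, and how the counting used strand is not given in the sources used here, so reads at that overlap could belong to either gene. With the oocyte marker share as a covariate the maturation change of Foxl2os was of similar size, at -0.49, and just missed the threshold (limma, adjusted p = 0.051).

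**Figure D2:**
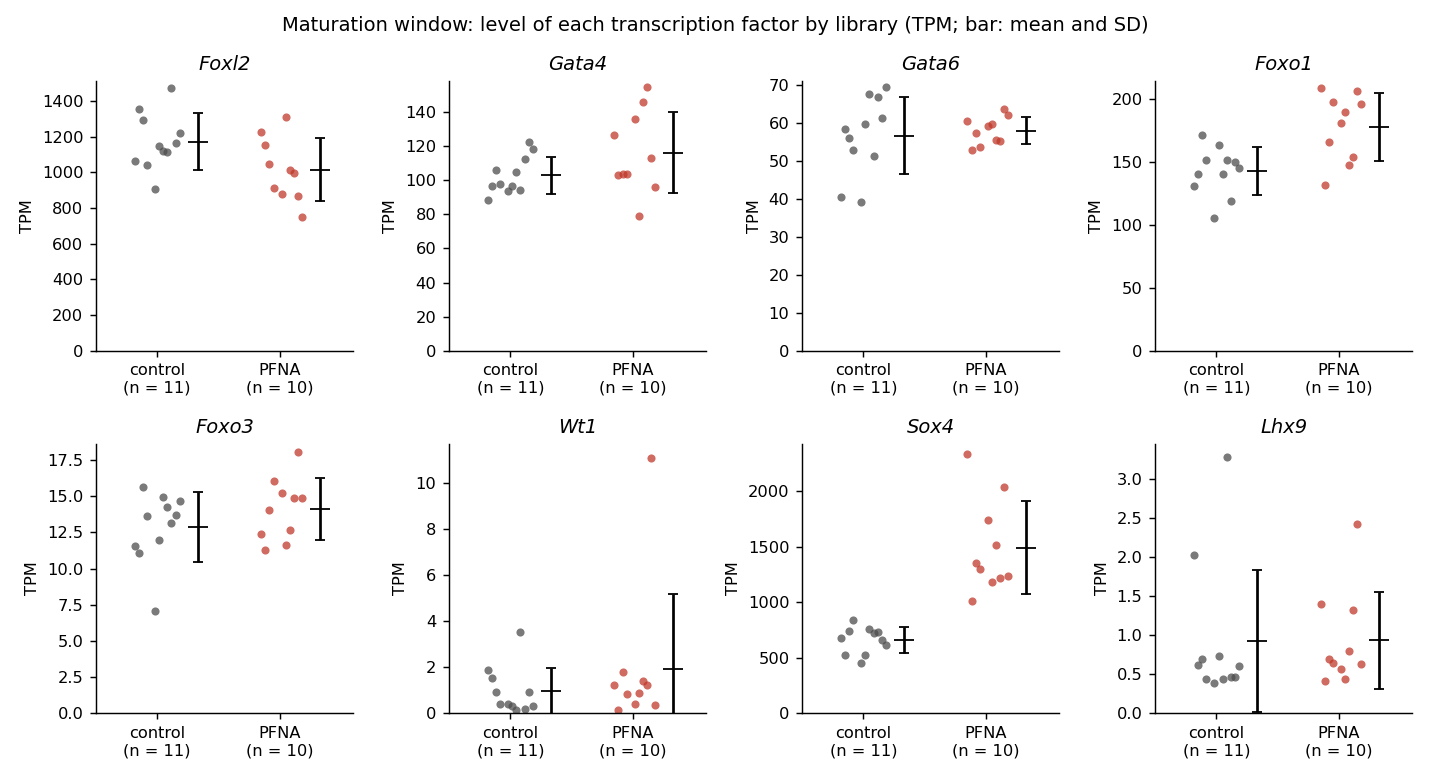
TPM of the 8 transcription factors (y axes, linear from 0) in each maturation library, with 11 controls in grey and 10 PFNA libraries in red, and bars for the mean and SD (the lower SD bars of Wt1 end under the axis). All 10 PFNA libraries lie above the highest control for Sox4, Foxo1 is shifted up with overlap, and 1 PFNA library at 11.1 TPM stands apart for Wt1.

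The 2 GATA factors changed in opposite directions in the ovulation window. Gata4 (chromosome 14, 63198922 to 63271692, minus strand), known for early gonad formation and for its action on steroidogenic promoters, ran from 97.5 to 211 CPM in the 12 controls, median 144. In the 11 PFNA libraries it ran from 178 to 446 CPM, median 249, and 10 of them exceeded the highest control. The means rose from 149 ± 35.4 CPM in controls (SD, n = 12) to 271 ± 73.1 CPM with PFNA (SD, n = 11), on the log2 scale a change of 0.86 (edgeR, SE 0.14, adjusted p = 6.3e-06). Gata6 (chromosome 18, 11052064 to 11085635, plus strand), which shares much of GATA4's function in the follicle, went the other way. It ran from 54.7 to 73.4 CPM in controls, median 64.2, and from 31.4 to 69.1 CPM with PFNA, median 44.1, with 8 of 11 PFNA libraries below every control. The mean fell from 63.4 ± 6.68 CPM in controls (SD, n = 12) to 48.9 ± 12.3 CPM with PFNA (SD, n = 11), on the log2 scale a change of -0.37 (edgeR, SE 0.11, adjusted p = 0.0032).

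In the maturation groups neither GATA gene passed the test. Gata4 was at 103 ± 10.9 TPM (SD, n = 11; 88.4 to 122) in controls and 116 ± 23.9 TPM (SD, n = 10; 79.0 to 154) with PFNA, a log2 difference of 0.15 (95% interval -0.05 to 0.36, limma, adjusted p = 0.25). Without PFNA replicates 1 and 2 together that difference was 0.24 and passed the test (limma, adjusted p = 0.044). Gata6 was at 56.6 ± 10.2 TPM (SD, n = 11; 39.1 to 69.4) and 57.9 ± 3.62 TPM (SD, n = 10; 52.8 to 63.7), a log2 difference of 0.05 (95% interval -0.13 to 0.24, limma, adjusted p = 0.70). The PFNA libraries of Gata6 lay inside the range of the controls. The effect of PFNA differed between the windows for both genes, by 0.70 for Gata4 (limma, adjusted p = 0.00039) and by -0.45 for Gata6 (limma, adjusted p = 0.0037), ovulation minus maturation. For that difference 67.7% of the 11214 genes tested in both windows were called. Of the 11214, 32.0% were called with the higher PFNA effect in the ovulation window and 35.6% with the lower. The lncRNA gene 1010001N08Rik overlaps Gata6 on the opposite strand by 504 bases in the maturation table and 58 in the ovulation table, and its level there did not exceed 2.54 TPM or 4.43 CPM in a library.

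**Figure D3:**
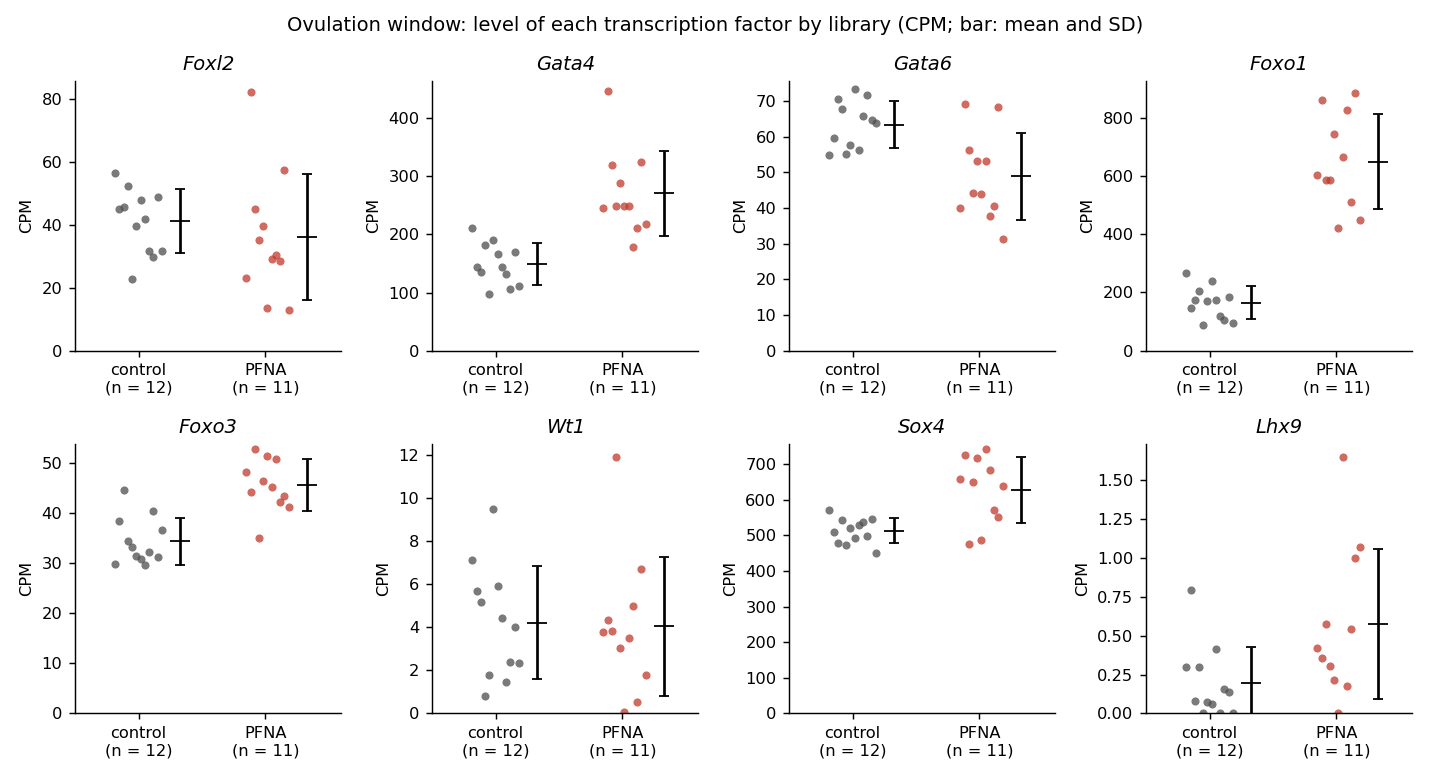
CPM of the 8 transcription factors (y axes, linear from 0) in each ovulation library, with 12 hCG controls in grey and 11 hCG plus PFNA libraries in red, and bars for the mean and SD. For Foxo1 the 11 PFNA libraries lie between 421 and 886 CPM, above the highest control at 266 CPM, and Gata4 is higher while Gata6 is lower with PFNA.

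Foxo1 was the gene of the set that moved most in the ovulation window and it rose in both windows. It spans chromosome 3 from 52268336 to 52353221 on the plus strand, in 3 exons. RefSeq promoter windows (GRCm38.p6, 250 bases before to 50 after a start site) matched 5 of the 8 genes by symbol, namely Foxl2, Foxo1, Foxo3, Sox4 and Lhx9. The stretches upstream of the annotated starts are shown for the 3 of these genes that rose with PFNA in the ovulation window. Capitals mark matches, on either strand, to the CCAAT box (CCAAT, or ATTGG on the other strand) and to the GC box (GGGCGG, or CCGCCC on the other strand), and each line runs 5′ to 3′ in the sense of the gene.
Foxo1, chr3:52268087-52268335, plus strand: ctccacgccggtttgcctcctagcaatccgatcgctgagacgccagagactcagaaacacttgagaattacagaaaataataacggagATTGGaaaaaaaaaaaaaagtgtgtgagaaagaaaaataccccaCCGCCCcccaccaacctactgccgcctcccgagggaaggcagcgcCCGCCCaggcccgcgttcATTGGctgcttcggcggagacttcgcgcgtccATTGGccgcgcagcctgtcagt
Sox4, chr13:28953714-28953949, minus strand: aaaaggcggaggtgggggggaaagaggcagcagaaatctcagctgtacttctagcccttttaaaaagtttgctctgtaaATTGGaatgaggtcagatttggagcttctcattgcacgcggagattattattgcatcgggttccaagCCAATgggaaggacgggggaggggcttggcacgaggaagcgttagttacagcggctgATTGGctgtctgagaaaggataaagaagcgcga
Foxo3, chr10:42276756-42276945, minus strand: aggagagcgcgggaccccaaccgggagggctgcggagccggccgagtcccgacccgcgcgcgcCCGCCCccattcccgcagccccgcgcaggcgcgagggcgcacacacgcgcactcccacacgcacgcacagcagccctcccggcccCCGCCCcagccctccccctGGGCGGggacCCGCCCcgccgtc
The whole 300-base windows held 3 CCAAT matches for Foxo1, 4 for Sox4 and 0 for Foxo3. Of 32841 RefSeq promoter windows of that length, 37.4% held at least 1 CCAAT match and 3.37% held 3 or more. GC-box matches numbered 5 for Foxo1, 5 for Foxo3 and 0 for Sox4, and 35.7% of all windows held at least 1. None of these 3 windows held the forkhead motif GTAAACA (in 3.65% of all windows), a GATA motif (AGATAA or AGATAG, and equally TGATAA with the form TGATAG, in 29.8%), the SF-1 motif CAAGGTCA (1.56%), the AP-1 motif TGACTCA (5.20%), the CRE TGACGTCA (1.79%), the E-box CACGTG (7.15%) or TATAAA (13.6%), on either strand. A match of letters is a description of the sequence and not a binding site.

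In the ovulation groups Foxo1 ran from 88.5 to 266 CPM in the 12 controls, median 172, and from 421 to 886 CPM in the 11 PFNA libraries, median 604. The groups did not overlap, which was so for 26.0% of the genes tested in that window, 11.9% with PFNA higher. The mean rose from 164 ± 56.7 CPM in controls (SD, n = 12) to 649 ± 162 CPM with PFNA (SD, n = 11), on the log2 scale a change of 1.98 (edgeR, SE 0.18, 95% interval 1.61 to 2.36, adjusted p = 5.0e-10). In the maturation window it ran from 105 to 171 TPM in controls, median 146, and from 132 to 209 TPM with PFNA, median 185, with 6 of 10 PFNA libraries above every control. That rise, from 143 ± 18.98 TPM in controls (SD, n = 11) to 178 ± 26.8 TPM (SD, n = 10), was 0.31 on the log2 scale (limma, SE 0.091, adjusted p = 0.013). The effect was 1.70 larger on the log2 scale in the ovulation window (limma, adjusted p = 2.8e-09).

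The maturation rise of Foxo1 was not called with the oocyte marker share as a covariate, at a log2 difference of 0.32 beside 0.31 without it (limma, adjusted p = 0.16). The share and PFNA largely went together in that window, so their parts could hardly be separated. The lncRNA gene Gm20402 overlaps Foxo1 on the opposite strand in the maturation table, and 674 of its 687 exon bases overlap exons of Foxo1, which has 8665. Gm20402 ranged from 8.26e-07 to 262 TPM in controls and from 15.2 to 419 TPM with PFNA, so reads of Foxo1 and Gm20402 could not be told apart there. Weighted by exon length, Gm20402 held at most 17.7% of the sum of both, and adding it to Foxo1 gave a log2 difference of 0.34 (limma, adjusted p = 0.012). Another gene, Gm38034, overlaps Foxo1 by 2069 bases on the same strand in the maturation table. It ranged from 0.638 to 8.35 TPM in controls and from 1.01 to 6.71 TPM with PFNA, and its part in the Foxo1 values was not tested.

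Foxo3 (chromosome 10, 42181841 to 42276755, minus strand), the related factor best known for holding primordial follicles at rest, rose less. In the ovulation window it ran from 29.7 to 44.5 CPM in controls, median 32.7, and from 34.9 to 52.6 CPM with PFNA, median 45.2. The groups overlapped, and 6 of 11 PFNA values exceeded the highest control. The mean rose from 34.3 ± 4.68 CPM in controls (SD, n = 12) to 45.5 ± 5.17 CPM with PFNA (SD, n = 11), 0.41 on the log2 scale (edgeR, SE 0.077, adjusted p = 4.4e-05). In maturation libraries it was 12.9 ± 2.40 TPM (SD, n = 11; 7.08 to 15.7) and 14.1 ± 2.14 TPM (SD, n = 10; 11.3 to 18.1), a log2 difference of 0.13 that did not pass the test (limma, adjusted p = 0.37). The difference between windows, 0.26, missed the threshold (95% interval -0.00 to 0.53, limma, adjusted p = 0.075). It passed without maturation control replicate 11, maturation PFNA replicate 10, ovulation control replicate 2 or ovulation PFNA replicate 4, with values between 0.23 and 0.34 over all 44 refits that left out 1 library.

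Sox4, a single-exon SoxC gene on chromosome 13 (28948919 to 28953713, minus strand), rose most in the maturation window. It ran from 455 to 839 TPM in the 11 controls, median 675, and from 1008 to 2334 TPM in the 10 PFNA libraries, median 1329. Every PFNA library lay above every control, whereas 0.489% of the genes tested in that window were separated in this way with PFNA higher and 1.28% in either direction. The mean rose from 660 ± 119 TPM in controls (SD, n = 11) to 1493 ± 421 TPM with PFNA (SD, n = 10), on the log2 scale a change of 1.15 (limma, SE 0.14, adjusted p = 7.1e-06). With the oocyte marker share as a covariate the change was 1.09 (limma, adjusted p = 0.0077), and without PFNA replicates 1 and 2 it was 1.25 (limma, adjusted p = 5.5e-07). In ovulation libraries the rise was smaller. Sox4 ran from 450 to 572 CPM in controls, median 516, and from 476 to 742 CPM with PFNA, median 651, with 7 of 11 PFNA libraries above every control. The log2 fold change was 0.29 (edgeR, SE 0.073, adjusted p = 0.00095), and the effect in the ovulation window was 0.88 lower than in the maturation window (difference -0.88, limma, adjusted p = 9.7e-06).

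Wt1 and Lhx9, factors of the early gonad and of the mesothelium-like surface epithelium, were the 2 lowest genes of the set by TPM. Wt1 did not pass the test in either window, and Lhx9 was left untested by the filters on low values. Wt1 (chromosome 2, 105126529 to 105173616, plus strand) ran from 0.167 to 3.53 TPM in maturation controls, median 0.396, and from 0.135 to 11.1 TPM with PFNA, median 1.06. The highest value was PFNA replicate 10. Its log2 difference was 0.33 (95% interval -0.37 to 1.02, limma, adjusted p = 0.49), and without that replicate the mean of Wt1 was under the filter of 1 TPM. Under hCG Wt1 was 4.22 ± 2.60 CPM (SD, n = 12; 0.822 to 9.49) and 4.04 ± 3.23 CPM (SD, n = 11; 0.0732 to 11.9), a log2 difference of -0.06 (95% interval -1.01 to 0.88, edgeR, adjusted p = 0.91). These intervals are wide, and smaller changes of Wt1 were not detectable.

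Lhx9 (chromosome 1, 138825186 to 138848577, minus strand) was at 0.922 ± 0.909 TPM (SD, n = 11; median 0.607) in maturation controls and 0.934 ± 0.624 TPM (SD, n = 10; median 0.667) with PFNA. In the ovulation groups its estimated counts summed to 33 in the 12 controls, 3 of them at 0, and to 102 in the 11 PFNA libraries, 1 of them at 0. Tested without the filter, it was higher with PFNA in the ovulation window by 1.49 on the log2 scale (edgeR, adjusted p = 0.040) and by 1.58 with DESeq2 (adjusted p = 0.021), at a mean of 0.193 CPM in controls and 0.575 CPM with PFNA. At these few counts the size of that change is uncertain.

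Wt1 and Lhx9 were high in the same maturation libraries, together with markers of the surface epithelium. In PFNA replicate 10 Wt1 was 11.1 TPM, Lhx9 2.43 TPM and Upk3b, a mesothelial membrane gene, 37.1 TPM. In control replicate 8 they were 3.53, 3.29 and 6.29 TPM, and in control replicate 12 they were 1.89, 2.02 and 1.51 TPM. In the other 18 maturation libraries Upk3b did not exceed 0.174 TPM. The sum of 11 surface epithelium markers was 108 TPM in PFNA replicate 10 and 61.4 TPM in control replicate 8, and 0 of the 5 tested markers were called in either direction. Among the 10 PFNA libraries the Pearson correlation of log2 values of Wt1 and Lhx9 was 0.85 (Spearman 0.81; permutation p = 0.0058 and 0.0076, adjusted p = 0.065 and 0.094 over 112 pairs). It fell to 0.42 without the 2 libraries farthest from the median of Wt1 and thus rests largely on those libraries. They were PFNA replicate 10 and PFNA replicate 2, which had the lowest Wt1 at 0.135 TPM. Among the 11 controls the values were 0.86 and 0.60 (permutation test, adjusted p = 0.033 and 0.27), and r fell to 0.32 without 2 libraries chosen in the same way. The part of surface epithelium cells in the levels of Wt1 and Lhx9 was not tested further.

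The order of the levels could be read in the maturation table, where TPM are adjusted for length. In controls it was Foxl2, Sox4, Foxo1, Gata4, Gata6, Foxo3 and then Wt1 with Lhx9. The ranges of Foxl2 and Sox4 did not touch, and Foxl2 was the higher of the pair in 11 of 11 control libraries. With PFNA the order of that pair turned, and Sox4 was above Foxl2 in 8 of 10 libraries. The exceptions were PFNA replicates 1 and 2, whose oocyte marker shares were 0.0296% and 0.0226%. In PFNA replicate 10, with a share of 0.0672%, Sox4 was at 2043 TPM and Foxl2 at 868 TPM. Foxo1 was above Gata4 in 11 of 11 controls and in 9 of 10 PFNA libraries although their ranges overlapped. The ranges of Gata4 and Gata6, of Gata6 and Foxo3, and of Foxo3 and Wt1 were apart in both groups. Wt1 and Lhx9 could not be ordered, with Wt1 the higher in 5 of 11 controls and 5 of 10 PFNA libraries.

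Ratios within a library do not depend on how the libraries were scaled, and 3 of them were fixed for testing in each window. Each recombines the levels of 2 genes already described above, so these tests are not separate evidence from the single-gene results. The balance of Foxl2 to Foxo1 fell in both windows. In the maturation groups its geometric mean went from 8.21 in controls to 5.68 with PFNA on the TPM scale, a log2 difference of -0.53 (two-sided permutation test, p = 0.00070, adjusted p = 0.0010 over 6 ratios), and 7 of 10 PFNA libraries lay below every control. In the ovulation window, on the CPM scale, it went from 0.258 to 0.04998, a log2 difference of -2.37, with 11 of 11 PFNA libraries below every control. Most of that fall restates the rise of Foxo1 (1.98), as Foxl2 itself was at -0.19 there and was not called. Gata4 to Gata6 rose in the ovulation window from 2.30 to 5.54, a log2 difference of 1.26, with 11 of 11 PFNA libraries above every control. Foxo1 to Foxo3 rose there from 4.55 to 13.9, a log2 difference of 1.62, with 10 of 11 above. Each of these 3 ovulation ratios had the smallest p the 100000 resamples can give, 2.0e-05 (permutation test, adjusted p = 4.0e-05). In that window the groups did not overlap for 26.0% of single genes, and how often ratios of other gene pairs separate was not examined. In the maturation window the log2 difference was 0.10 for Gata4 to Gata6 (permutation test, adjusted p = 0.40) and 0.17 for Foxo1 to Foxo3 (adjusted p = 0.12), and neither passed the test. CPM are not adjusted for length, so in the ovulation window only the change of a ratio between groups can be read.

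**Figure D4:**
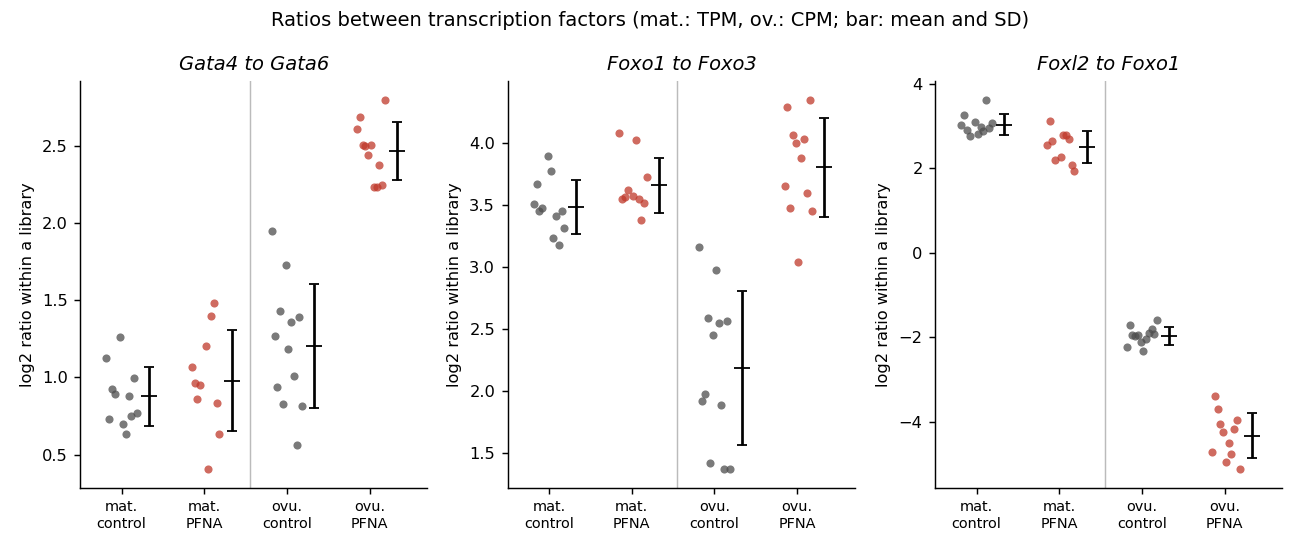
Log2 ratio within each library (y axes) of Gata4 to Gata6, Foxo1 to Foxo3 and Foxl2 to Foxo1 for the maturation groups (left of the grey line, TPM) and the ovulation groups (right of it, CPM), with controls in grey, PFNA in red and bars for the mean and SD. Foxl2 to Foxo1 is lower with PFNA in both windows, and Gata4 to Gata6 is higher with PFNA in the ovulation window without overlap of the groups.

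Within the ovulation groups some of these genes varied together from library to library. Among the 12 controls, Foxl2 and Foxo1 had a Pearson correlation of log2 CPM of 0.93 and a Spearman correlation of 0.95 (permutation p = 1.0e-05 and 2.0e-05, both adjusted p = 0.0011 over 112 pairs), and r was 0.91 without the 2 libraries farthest from the median of Foxl2. Foxl2 and Gata4 had values of 0.87 and 0.83 (permutation test, adjusted p = 0.0063 and 0.036), and Gata4 and Foxo1 of 0.91 and 0.84 (permutation test, adjusted p = 0.0045 and 0.034). Among the 11 PFNA libraries, Gata4 and Gata6 had 0.86 and 0.95 (permutation test, adjusted p = 0.020 and 0.0011), and Foxl2 and Gata6 had 0.84 and 0.86 (permutation test, adjusted p = 0.029 and 0.034). Without the 2 libraries farthest from the median of the first gene, r was 0.76 for Foxl2 and Gata4, 0.84 for Gata4 and Foxo1, 0.87 for Gata4 and Gata6 and 0.67 for Foxl2 and Gata6. In the other group the same pairs had other values. Gata4 and Gata6 had r = -0.13 and Foxl2 and Gata6 r = 0.10 among the 12 controls, and among the 11 PFNA libraries r was 0.42 for Gata4 and Foxo1, 0.72 for Foxl2 and Gata4 and 0.82 for Foxl2 and Foxo1 (permutation test, adjusted p = 0.83, 0.89, 0.48, 0.11 and 0.034). The difference between the groups was not tested. Control libraries high in Foxl2 were also high in Foxo1, while the ratio of both genes differed between the groups. The points share depth and cell makeup, and the pairs named were chosen after the values were seen.

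Over all libraries of a window, after subtraction of the group means, the gene whose log2 level was most like each factor was found among genes averaging 10 TPM or CPM and more. In maturation libraries (n = 21 libraries, 6497 genes) these were Stk11ip for Foxl2 (r = 0.88), Tsc22d1 for Gata4 (0.89), Fzd4 for Gata6 (0.85), Rprd2 for Foxo1 (0.85), Kdm2a for Foxo3 (0.95), Kctd10 for Wt1 (0.89) and Klhl24 for Sox4 (0.91). Among ovulation libraries (n = 23 libraries, 8872 genes) they were Mov10 for Foxl2 (r = 0.91), Trib2 for Gata4 (0.82), Sec23ip for Gata6 (0.85), Tanc1 for Foxo1 (0.89), Fam214a for Foxo3 (0.76), Tacc2 for Wt1 (0.89) and Pheta1 for Sox4 (0.79). No factor had the same closest gene in both windows. Each is the highest of all correlations searched and carry no test.

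Of 35 other transcription factor genes of the ovary, 23 were tested in the maturation window, where 11 rose and 2 fell, with a median log2 fold change of 0.32 beside 0.02 over all genes. There 13.3% of all genes tested rose and 16.1% fell. Nr0b1, which encodes the repressor DAX1, rose from 6.41 ± 2.79 TPM in controls (SD, n = 11) to 20.98 ± 14.5 TPM with PFNA (SD, n = 10), by 1.41 on the log2 scale (limma, adjusted p = 0.00066). Nr5a2, encoding LRH-1, fell from 121 ± 22.8 to 84.1 ± 10.1 TPM, a log2 change of -0.51 (limma, adjusted p = 0.00074). In ovulation libraries 31 were tested, 8 rose and 11 fell, with a median of 0.05 beside 0.04 over all genes. Of all genes tested in that window 38.0% rose and 35.2% fell. Esr2, the oestrogen receptor of granulosa cells, rose from 32.0 ± 7.82 CPM in controls (SD, n = 12) to 78.5 ± 15.9 CPM with PFNA (SD, n = 11), by 1.29 (edgeR, adjusted p = 4.9e-09). Cited2, a coactivator gene, fell from 1675 ± 299 to 669 ± 127 CPM, a log2 change of -1.33 (edgeR, adjusted p = 4.9e-11). Known partners of the GATA factors went in different directions there. Zfpm1 (FOG1) fell from 50.3 to 18.3 CPM, at -1.46 (edgeR, adjusted p = 1.0e-09), and Nr5a1 (SF-1) from 158 to 104 CPM, at -0.60 (edgeR, adjusted p = 7.0e-07). Nr5a2 rose from 177 to 452 CPM, at 1.35 (edgeR, adjusted p = 7.9e-09), and Zfpm2 (FOG2) was at 75.7 and 84.4 CPM, a log2 difference of 0.16 that did not pass the test (edgeR, adjusted p = 0.24). Adjusted for the oocyte marker share, 1 of the 11 maturation rises and 1 of the 2 falls were still called, beside 8 of 8 and 10 of 11 in ovulation libraries.

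Among genes known as targets of FOXO factors, 12 of 24 rose in both windows. Of 26 on the list, 24 were tested in each. In the maturation window 15 rose and 1 fell (median 0.38, beside 0.02 over all genes), where 13.3% of all genes tested rose and 16.1% fell. In the ovulation window 15 rose and 7 fell (median 0.50, beside 0.04), where 38.0% of all genes tested rose and 35.2% fell. Of all 11214 genes tested in both windows, 679 rose in both (6.05%). The 12 targets were Sesn3, Irs2, Txnip, Pdk4, Fbxo32, Gadd45a, Pik3ip1, Tsc22d3, Cat, Gabarapl1, Rbl2 and Pink1. Some of them, such as Pdk4 and Cat, are also known targets of PPAR nuclear receptors. The list was chosen with earlier results of these libraries known, so its direction is not independent evidence.

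Among the FOXO targets the largest rise in the ovulation window was that of Fbxo32, which encodes the ubiquitin ligase atrogin-1. It went from 58.7 ± 17.7 CPM in controls (SD, n = 12) to 512 ± 165 CPM with PFNA (SD, n = 11), by 3.12 on the log2 scale (edgeR, adjusted p = 2.3e-13), and in the maturation window it rose by 0.80 (limma, adjusted p = 0.00038). Txnip, a thioredoxin inhibitor, rose by 2.24 in the ovulation window (edgeR, adjusted p = 1.9e-10) and by 1.12 in the maturation window (limma, adjusted p = 5.1e-05). Irs2, the insulin receptor substrate with the smallest p among the maturation rises, went from 10.1 ± 2.73 TPM in controls (SD, n = 11) to 30.9 ± 11.2 TPM with PFNA (SD, n = 10), by 1.47 (limma, adjusted p = 2.4e-05). Pik3ip1, an inhibitor of PI3K, rose by 1.69 in the maturation window (limma, adjusted p = 0.00011) and by 1.44 in the ovulation window (edgeR, adjusted p = 0.00012). Ccnd2, the cyclin of dividing granulosa cells that FOXO1 is known to repress, fell in both windows, at -1.998 in the maturation window (limma, adjusted p = 1.0e-05) and at -1.19 in the ovulation window (edgeR, adjusted p = 1.8e-09). Other targets went down in the ovulation window, among them Sod2, at -1.14 (edgeR, adjusted p = 8.5e-11), Klf15, at -1.68 (adjusted p = 4.9e-10), and Bcl2l11, at -0.94 (adjusted p = 6.1e-09). With the oocyte marker share as a covariate, 4 of the 15 maturation rises and 13 of the 15 ovulation rises were still called, and Fbxo32 was at 0.50 in the maturation window (limma, adjusted p = 0.15).

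**Figure D5:**
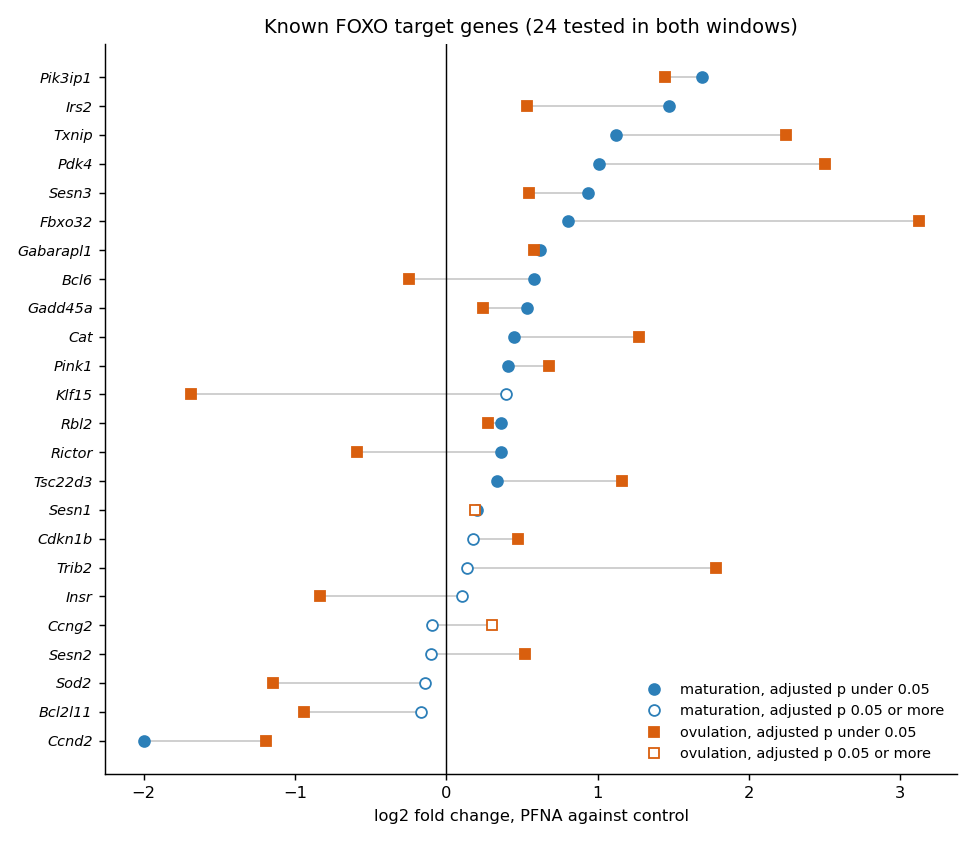
Log2 fold change (x axis) of PFNA against control for the 24 FOXO target genes tested in both windows (y axis), ordered by their maturation value, with circles for the maturation window (limma) and squares for the ovulation window (edgeR), filled where the adjusted p was under 0.05. In both windows 12 genes lie to the right of 0 with filled symbols, Fbxo32 reaches 3.12 in the ovulation window, and Ccnd2 lies to the left in both.

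The genes of the insulin, PI3K and AKT pathway that control FOXO proteins were called about as often as all genes in the maturation window (7 of 26, beside 29.4%), and 26 of 27 were called in the ovulation window, beside 73.2%. Of 28 on the list, 6 of 26 tested rose and 1 fell in the maturation window (median 0.14), and 9 of 27 rose and 17 fell in the ovulation window (median -0.25). Skp2, a ubiquitin ligase gene, fell from 7.51 ± 1.61 TPM in controls (SD, n = 11) to 4.09 ± 1.54 TPM with PFNA (SD, n = 10), a log2 change of -0.77 (limma, adjusted p = 0.00026). Under hCG Irs1 rose from 79.4 ± 15.4 CPM in controls (SD, n = 12) to 222 ± 27.2 CPM with PFNA (SD, n = 11), by 1.49 (edgeR, adjusted p = 5.0e-13). Ywhaz, a 14-3-3 protein gene, fell from 1740 ± 398 to 606 ± 114 CPM, a log2 change of -1.52 (edgeR, adjusted p = 2.4e-11). The kinase genes Akt1 and Akt2 fell in the ovulation window, Akt1 at -0.25 (edgeR, adjusted p = 0.0092) and Akt2 at -0.29 (edgeR, adjusted p = 0.00016). Adjusted for the oocyte marker share, Akt1 was at -0.14 and not called (edgeR, adjusted p = 0.12). Pik3r1, a regulatory subunit of PI3K, rose in both windows, by 0.76 (limma, adjusted p = 0.0031) and 0.65 (edgeR, adjusted p = 3.7e-05), and its maturation value was 0.68 under that covariate (limma, adjusted p = 0.13). Skp2 was then at -0.59 (limma, adjusted p = 0.086). The list shares Insr and Irs2 with the FOXO targets.

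Genes known as targets of FOXL2, GATA factors and SF-1 in granulosa cells went mostly down in the maturation window and mostly up in the ovulation window. Of 20 tested in the maturation window 4 rose and 10 fell (median -0.52), and of 22 in the ovulation window 13 rose and 7 fell (median 0.84). Over all genes 13.3% rose and 16.1% fell in the maturation window, and 38.0% rose and 35.2% fell in the ovulation window. In all, 8 of the 20 genes tested in both windows fell in the maturation window and rose in the ovulation window, namely Amh, Cyp19a1, Inhbb, Fshr, Hsd17b1, Nr5a2, Ihh and Dhh, beside 857 of all 11214 genes. Adjusted for the oocyte marker share, 4 of the 10 maturation falls on this list and 4 of the 10 among the granulosa markers were still called. Cyp19a1 was then at -1.05 (limma, adjusted p = 0.063), Inhbb at -2.11 (adjusted p = 0.13) and Hsd17b1 at -0.90 (adjusted p = 0.090). Fshr, the receptor for follicle-stimulating hormone, fell from 6.60 ± 1.30 TPM in controls (SD, n = 11) to 2.30 ± 0.904 TPM with PFNA (SD, n = 10), a log2 change of -1.24 (limma, adjusted p = 7.4e-06), and rose from 13.7 ± 4.03 CPM in controls (SD, n = 12) to 63.1 ± 15.7 CPM with PFNA (SD, n = 11), by 2.20 (edgeR, adjusted p = 4.7e-12). Bmp2 rose in both windows, in the maturation window from 140 ± 47.3 to 442 ± 137 TPM, by 1.66 (limma, adjusted p = 1.0e-05). Ptgs2, the prostaglandin synthase induced before ovulation, fell from 5646 ± 1997 to 153 ± 57.0 CPM in the ovulation window, a log2 change of -5.21 (edgeR, adjusted p = 7.7e-15). This list shares 10 genes with the granulosa markers, of which 1 of 16 rose and 10 fell in the maturation window and 13 rose and 2 fell in the ovulation window. Among the markers Serpine2 fell at -1.14 in the maturation window (limma, adjusted p = 5.0e-06), Amhr2, the receptor for anti-Mullerian hormone, rose by 2.21 in the ovulation window (edgeR, adjusted p = 1.9e-14) and Inha fell there at -0.41 (edgeR, adjusted p = 0.00032). Esr2 was the 1 marker that rose in the maturation window, by 0.31 (limma, adjusted p = 0.039), a call lost in 12 of 21 refits that left out 1 library.

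Genes listed for the testis side, a programme that FOXL2 is known to restrain, showed no common direction in the maturation window. Of 11 tested, 4 rose and 2 fell (median 0.29), and of 14 tested in the ovulation window 7 rose and 2 fell (median 0.71), beside 13.3% and 16.1% of all genes in the maturation window and 38.0% and 35.2% in the ovulation window. Sox9, the Sertoli cell determinant, was at 5.89 ± 3.20 TPM (SD, n = 11) in maturation controls and 10.8 ± 4.39 TPM (SD, n = 10) with PFNA, a rise of 0.83 (limma, adjusted p = 0.037). That call was lost in 10 of 21 refits that left out 1 library and, at 0.72, with the oocyte marker share as a covariate (limma, adjusted p = 0.33). In the ovulation groups Sox9 was 6.79 and 4.75 CPM, a log2 difference of -0.52 that did not pass the test (edgeR, adjusted p = 0.096). Sox8, a relative of Sox9, fell from 10.03 ± 3.49 to 5.22 ± 2.05 TPM in the maturation window, a log2 change of -0.83 (limma, adjusted p = 0.0026), and was at -0.72 under that covariate (limma, adjusted p = 0.13). Amhr2 is on this list as well as among the granulosa markers. Dhh and Nr0b1 are also among the targets of FOXL2, GATA factors and SF-1, and Ptch1 is among the theca and stroma markers. The counts of this list are thus not particular to the testis side. Aard fell in the ovulation window from 119 ± 71.4 to 36.3 ± 21.1 CPM, a log2 change of -1.71 (edgeR, adjusted p = 6.5e-05).

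Some markers of the other cells of a follicle preparation were called as well. Over all genes tested, 13.3% rose and 16.1% fell in the maturation window, and 38.0% rose and 35.2% fell in the ovulation window. Of the oocyte markers, 20 of 21 tested fell in the maturation window, with Tle6 at -1.38 (limma, adjusted p = 2.8e-05), and 13 of 22 rose in the ovulation window, with Nobox at 1.62 (edgeR, adjusted p = 6.8e-06). Their sum was 289 to 464 TPM in maturation controls and 14.03 to 672 TPM with PFNA, and 169 to 661 CPM and 67.6 to 875 CPM in the ovulation groups. Theca and stroma markers rose in 3 of 17 and fell in 1 of 17 in the maturation window, with Ptch1 at 0.57 (limma, adjusted p = 0.0056) and Insl3 at -1.12 (limma, adjusted p = 0.045, lost in 9 of 21 refits that left out 1 library). In ovulation libraries 9 of 18 rose, with Tagln at 3.66 (edgeR, adjusted p = 2.7e-10), and 3 fell, with Pdgfra at -2.21 (edgeR, adjusted p = 2.4e-08). Their sums overlapped between groups in both windows, at 534 to 1556 and 574 to 2531 TPM and at 420 to 2556 and 2123 to 4774 CPM.

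Surface epithelium, endothelial and immune markers were low beside the granulosa markers. Their counts stand beside the 13.3% of all genes that rose in the maturation window and the 38.0% that rose in the ovulation window. Under hCG 5 of 5 tested surface epithelium markers rose, of 10 measured, with Krt8 at 1.77 (edgeR, adjusted p = 7.6e-10). With the oocyte marker share as a covariate 2 of the 5 were still called. Upk3b was not among those tested, and was at 0 in most PFNA libraries and at most 5.53 CPM, in PFNA replicate 4. The sum of the 10 markers was 13.3 to 39.5 CPM in controls and 49.9 to 136 CPM with PFNA. Endothelial markers rose in 7 of 10 there, with Emcn at 2.28 (edgeR, adjusted p = 0.00012) and sums of 40.5 to 179 and 44.3 to 507 CPM, and 0 of 8 were called in the maturation window. Immune markers rose in 2 of 7 in the maturation window, with Cd68 at 0.79 (limma, adjusted p = 0.043, lost in 13 of 21 refits that left out 1 library), and in 6 of 11 in the ovulation window. Cd3e, a T cell receptor gene, was at 0.192 ± 0.179 CPM (SD, n = 12) in ovulation controls and at 275 ± 143 CPM (SD, n = 11) with PFNA (edgeR, adjusted p = 4.6e-17). Without Cd3e the immune sum was 2.77 to 148 CPM in controls and 3.32 to 184 CPM with PFNA, and no gene of these lists was at 0 in every library. The part of these cells in the changes of the transcription factors was not tested, apart from the oocyte share given beside them.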

How the data were processed

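The authors deposited 1 gene table per window. The maturation values are TPM, scaled to 1e+06 in each library by the authors although the table is named as raw counts, and the ovulation values the authors deposited are estimated counts, 14.9% of them not whole (tolerance 0.001), which were rounded. The submitters' processing notes name Partek, Bowtie2 and HISAT2. Their roles, the counting, the strand setting and the build are not given in the sources used here. Starts in the maturation table equalled GENCODE M21 (GRCm38) for 99.4% of 22182 matched symbols, against 37.2% of 17842 in the ovulation table, so coordinates are those of the maturation table, 1-based. RNA had been selected on poly-T beads and primed with random hexamers, per the labels' protocols.

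Maturation libraries were tested with limma 3.58.1 (trend, robust) on log2(TPM + 1) for genes averaging 1 TPM or more, and fold changes on that scale understate the change of low genes. Ovulation libraries were tested with edgeR 4.0.16 (filterByExpr, TMM, robust quasi-likelihood) in R 4.3.3, with standard errors taken as the fold change over the root of F. The difference between windows was the limma effect on log2(TMM CPM + 1) minus that on log2(TPM + 1), with Satterthwaite's degrees of freedom. Adjustment was by Benjamini-Hochberg over all genes tested. Ratios used two-sided permutation tests with 100000 resamples in scipy 1.17.1. Correlations were planned without a p, and permutation p-values over 112 pairs were added after the data were seen.

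The genes and lists were chosen with earlier results of these data known. Named beside the 8 factors were the called gene with the smallest p of each list, direction and window, the gene most like each factor, and others picked after their values were seen. Each fit was tested on simulated data. The column for maturation control replicate 6 differs from its title by 1 letter, and maturation control replicate 4 was not analysed here. The highest correlation between libraries of a group was 0.981 and 0.994, and none were identical. Alternatives were pseudocounts, filters, scaling, DESeq2 1.42.0, a replicate block, an oocyte covariate and leaving out libraries.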

Additional observations from a re-analysis of the deposited data

Results flagged for a closer look

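In the maturation PFNA group, replicate 10 lay far from the other 9 libraries in 6 measures. Wt1 was 11.1 TPM there, beside 1.79 TPM in the next library, and Lhx9 was 2.43 TPM, beside 1.41 TPM. The summed oocyte markers were 672 TPM, beside 296 TPM, and the summed theca and stroma markers were 2531 TPM, beside 1366 TPM. The summed surface epithelium markers were 108 TPM, beside 40.9 TPM, and the summed immune markers were 258 TPM, beside 138 TPM. Chance alone flags about 1 in 20 groups, and 17 groups of libraries were examined. Without this replicate, Foxo1 and Sox4 were still called in the maturation window, and Wt1 could not be tested.

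The effect of PFNA differed between the windows for 4 of the 7 factors tested, by the limma difference of the ovulation effect minus the maturation effect on the log2 scale. The difference was 0.70 for Gata4, -0.45 for Gata6, 1.70 for Foxo1 and -0.88 for Sox4. Of all 11214 genes tested in both windows, 67.7% were called for such a difference, so the count of factors did not stand apart. Gata4 was above every control in 10 of 11 ovulation libraries, Gata6 below every control in 8 of 11, and Sox4 above every control in 10 of 10 maturation libraries.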

How the results depend on the processing

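No called change of a factor reversed its direction in any of 754 refits, of which 740 kept the call, 2 lost one (Foxo1 in the maturation window) and 12 gained one. Some estimates that were not called changed sign. Examples are Gata6 in the maturation window (-0.04 to 0.08 over the alternatives) and Wt1 in the ovulation window (-0.38 to 0.11 when 1 library was left out). With the oocyte marker share as a covariate, 636 genes were called in the maturation window instead of 4030 (299 higher and 337 lower), and 1 factor (Sox4) instead of 2. There the share largely went with PFNA, so their parts in the lost calls cannot be told apart. Without PFNA replicates 1 and 2 together, 4 factors were called. Same-numbered libraries did not deviate together (median correlation -0.03 over 9 maturation pairs and -0.06 over 11 ovulation pairs, with 1 and 0 libraries closest to their own number). With the replicate number as a block, 1032 genes rose instead of 1824 and 1 factor was called in the maturation window, where Foxo1 was at 0.24 (limma, adjusted p = 0.11), and the window difference of Foxo3 was 0.36 (limma, adjusted p = 0.013). That difference also passed with median-ratio scaling at 0.32 (adjusted p = 0.014) and a pseudocount of 5 at 0.26 (adjusted p = 0.030). Leaving out 1 library at a time gave 3586 to 4588 genes and 2 to 3 factors called in the maturation window. The maturation log2 ratio of Foxo1 to Foxo3 was then 0.12 to 0.21 and passed without control replicate 11 alone (permutation test, adjusted p = 0.038). The causes were not tested. Read depth of the maturation values is unknown, and Lhx9 had at most 26 counts per ovulation library and was tested in alternatives alone, which called it (1.49 without the filter, 1.58 with DESeq2).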
